A study of Mus musculus with 4 samples.

Results

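Gas1 and 8 other genes of hedgehog signalling were followed on 4 mouse expression arrays: Gas1, Cdon, Boc, Ptch1, Smo, Gli1, Gli2, Gli3 and Hhip, out of 18193 named genes. They were taken by name, as every probe set that the platform annotation pairs with 1 of these symbols alone. This gave 24 of the 34945 single-gene probe sets. The probe set that stands for a gene was chosen by its mean signal over the 4 arrays, the highest being taken, and the others check it. The gene set was built around Gas1, itself selected on its low signal in VEGFD arrays, so the difference of Gas1 is given as a description with no test.

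The arrays compare cells labelled as endothelium of collecting lymphatics near a tumour, the vessels that drained it, 2 arrays a group. Both groups of mice carried flank tumours of 293EBNA cells, a line derived from human embryonic kidney, grown to 2000 mm3. In the Apex group the tumour cells held the empty APEX vector, and in the VEGFD group they held that vector with VEGFD, which encodes a lymphatic growth factor. The dye Patent Blue V, injected into the tumour, marked the vessels for dissection, and endothelial cells were then taken by magnetic sorting. One label field speaks of lymph node endothelial cells instead. The titles number 2 biological replicates in each group. The sources used here do not give the strain or age of the mice, or whether animals were pooled. The p-values below therefore measure only the spread between these arrays.

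Hedgehog ligands are secreted proteins that bind the receptor Patched (Ptch1) with the help of the cell surface co-receptors encoded by Gas1, Cdon and Boc. Binding frees Smoothened (Smo), which acts in the primary cilium on the transcription factors of the Gli family. Gli1, Ptch1 and Hhip are themselves targets that active signalling switches on, while Gas1, Cdon and Boc are known to be lowered by it in several embryonic tissues. In adult connective tissue the pathway is known mainly for signals to mesenchymal cells, with Schwann cells of nerves among the sources of the ligand Dhh.

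The promoters of Gas1 and Cdon are shown because these were the members that lay at least 2-fold apart between the groups, in opposite directions. Both sequences are RefSeq's in build GRCm38.p6 and run from 250 bases before to 50 after a transcript start. Capitals mark a CCAAT box (CCAAT) or a GC box (GGGCGG), searched on both strands. The Gas1 window is chr13:60177486-60177785 on the minus strand, and the Cdon window is chr9:35451826-35452125 on the plus strand.
Gas1: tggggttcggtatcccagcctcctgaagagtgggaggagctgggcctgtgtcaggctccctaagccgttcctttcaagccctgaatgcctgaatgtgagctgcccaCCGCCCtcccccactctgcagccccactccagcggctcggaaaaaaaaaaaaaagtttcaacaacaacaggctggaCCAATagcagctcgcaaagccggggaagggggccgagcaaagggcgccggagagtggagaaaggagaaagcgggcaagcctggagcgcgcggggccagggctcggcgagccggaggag
Cdon: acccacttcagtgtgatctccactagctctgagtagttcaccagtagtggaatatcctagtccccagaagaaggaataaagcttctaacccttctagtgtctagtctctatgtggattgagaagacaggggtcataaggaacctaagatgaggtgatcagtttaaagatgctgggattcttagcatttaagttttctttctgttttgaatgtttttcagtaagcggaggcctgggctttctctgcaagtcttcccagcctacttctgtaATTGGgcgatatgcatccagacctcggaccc
The Gas1 window held 62.3% G and C with 17 CpG dinucleotides, and the Cdon window 44.7% with 3, against medians of 52.7% and 7 over 32851 promoters of the same length. The start used for Cdon lies 30548 bases inside the span of the gene, so the window belongs to 1 of its starts. A CCAAT box was present in both windows and in 37.4% of all promoters, and a GC box was present in that of Gas1 and in 35.7% of all. The letters GACCACCCA, the consensus bound by Gli proteins, were searched on both strands and did not occur in the windows of the 7 members with an entry (Gas1, Cdon, Ptch1, Smo, Gli2, Gli3 and Hhip). They occur in 0.253% of all promoters. None of these 3 motifs contains another, and no matches overlapped in the Gas1 and Cdon windows.

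Values are the deposited linear signals, listed with Apex replicates 1 and 2 first, then VEGFD replicates 1 and 2. Differences are the VEGFD mean less the Apex mean of log2(signal + 16), with the standard error (SE) that limma gave for 2 arrays against 2. That scale understates the differences of dim genes. Genes entered the fit when their mean reached a signal of 25.3, the median over probe sets that are not controls, which left 11677 genes and 7 of the 9 members. Gli1 and Hhip lay below it and were not tested. Signals of different probe sets are not set against each other, since probes differ in brightness.

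The marker genes of the labelled cell type were not uniform over the arrays. Of 10 pan-endothelial markers 2 exceeded 25.3 on all arrays. Their summed signal was 4269 in Apex replicate 2 and 410 to 1101 on the other arrays. Of 6 lymphatic endothelial markers named here 2 exceeded 25.3 on all arrays, with list sums of 1056 and 2091 in Apex and 1467 and 1938 in VEGFD. These were Pdpn, the gene of podoplanin, with signals of 963, 1622, 1237 and 1715, and Flt4, the gene of a receptor for VEGFD, with 42.6, 247, 161 and 145. Lyve1, a receptor gene of lymphatic vessels, exceeded it in Apex replicate 2 alone, and Prox1, the lymphatic identity factor, was at most 11.6 in its brightest probe set. Of the 3 tested, 2 were higher and 1 lower in VEGFD, with overlapping groups in each. Of 9 fibroblast markers 7 exceeded 25.3 on all arrays, with sums of 17582 and 19463 in Apex and 17290 and 17957 in VEGFD. The arrays are named by their labels throughout, and fewer cells of a type and less RNA per cell cannot be told apart in such samples.

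Gas1 had far less signal in VEGFD arrays in its brightest probe set. Gas1 encodes a growth arrest protein held to the cell surface by a lipid anchor, which binds hedgehog ligands and resembles the co-receptors of the GDNF family. Its signals were 1239, 1073, 190 and 113. Both Apex arrays lay above both VEGFD arrays, and the mean signal was 7.63-fold higher in Apex. The log2 difference was -2.84 ± 0.30, and 0.0942% of the tested genes had a difference as low or lower. The background for this direction was 2.79% of genes at least 2-fold lower in VEGFD without overlap. Nothing is read from that share, because Gas1 was chosen for its difference.

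The other Gas1 probe sets lay on the same side. The second had signals of 612, 737, 202 and 91.6, a 4.59-fold higher mean in Apex. The third was dim, with 37.2, 33.8, 6.15 and 19.9, and a 2.72-fold higher mean in Apex. In all 3 probe sets the groups did not overlap. The Apex replicates of the brightest probe set differed by 0.21 on the log2 scale, and the VEGFD replicates differed by 0.67, with VEGFD replicate 2 the lower. In the third probe set VEGFD replicate 1 was the lower.

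**Figure D1:**
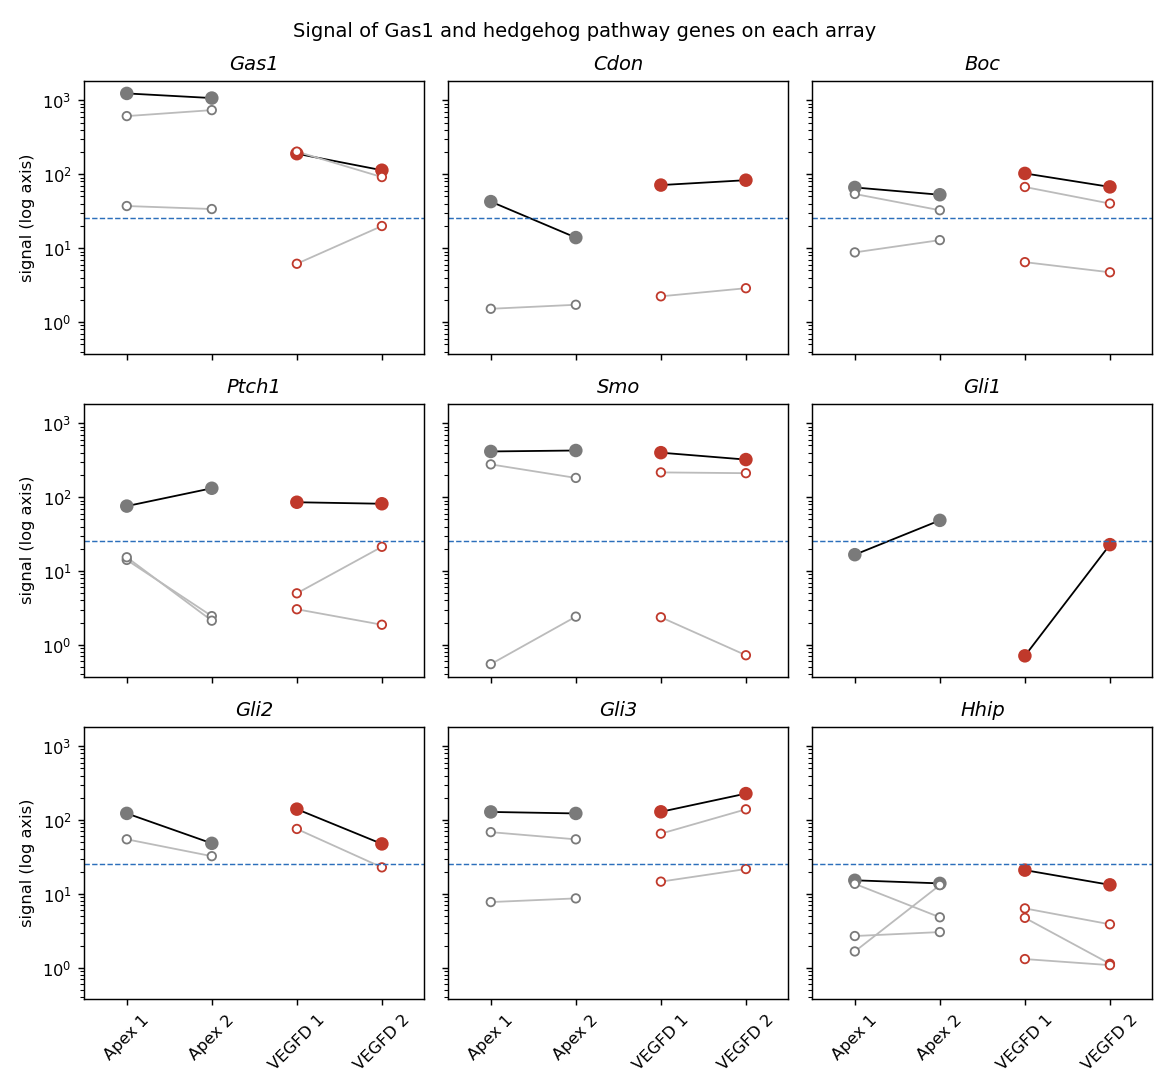
Signal of each member on each array, on a log axis, with filled points for the probe set that stands for the gene and open points for its other probe sets. Lines join the replicates of a group, grey marks Apex, red marks VEGFD and the dashed line is the filter signal of 25.3. The filled points of Gas1 sit at 1073 and above in Apex and at 190 and below in VEGFD. In each of its other probe sets the open Apex points lie above the open VEGFD points. Hhip stays under the dashed line on every array in all its probe sets.

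The difference of Gas1 was measured beside markers of several cell types, whose part in it was not tested. The fibroblast list as a whole had 4 of 7 tested markers higher and 3 lower in VEGFD, with a median of 0.046. After median centring of the arrays 6 were higher and 1 lower, with a median of 0.24 beside 0.14 over all tested genes. Col1a2, a collagen I gene, had signals of 5555, 6846, 6122 and 6623, and Pdgfra, the receptor gene that marks many mesenchymal cells, had 1158, 727, 1493 and 729. The 2 other Pdgfra probe sets above the filter were higher in VEGFD, at 0.43 and 0.96. Dpt, which encodes the matrix protein dermatopontin, went with Gas1, at 2725, 2407, 204 and 168. The adipocyte markers tested, 3 in all, were lower in VEGFD, with list sums of 2001 and 4517 in Apex and 1164 and 1227 in VEGFD. Most of each sum came from 1 gene, Fabp4, at 1741, 4073, 1098 and 1047. Adipoq had 38.3, 145, 12.7 and 12.5, with both VEGFD signals under 25.3, so it entered the fit through its Apex signals. Of the listed adipocyte markers Lep and Cidec exceeded 25.3 on no array and Plin1 was unnamed here. In limma, 2 of 3 adipocyte, 2 of 4 epithelial and 1 of 7 fibroblast markers tested had an unadjusted p below 0.05. The share over all tested genes was 5.70%. The smooth muscle and pericyte list was split, with 3 of 7 tested markers higher and 4 lower in VEGFD and a median of -0.34. Of these 7, 4 had an unadjusted p below 0.05 (limma, smallest adjusted p = 0.823). On the side of Gas1 were Pdgfrb, a pericyte receptor gene, at -0.97, Notch3 at -1.17 and Des, the gene of desmin, at -1.33. The other Des probe set above the filter was at -0.0023, and that of Pdgfrb was at -1.25. On the opposite side were Tagln, a gene of the contractile apparatus, at 2.34 and Acta2, which encodes smooth muscle actin, at 0.78. The list sums were 7222 and 8769 in Apex and 8777 and 15931 in VEGFD. Of 4 tested epithelial markers 3 were lower: Epcam, a surface adhesion gene, at -0.93, and the keratin genes Krt5 at -0.85 and Krt18 at -0.67. Both VEGFD signals of Krt5 were under 25.3. The groups overlapped for Krt18 and for Krt8, which was higher, at 0.48. The list sums were 225 and 287 in Apex and 181 and 140 in VEGFD. Krt14 and Cdh1 exceeded 25.3 on no array. Leukocyte markers had 2 of 3 tested higher (3 after median centring), skeletal muscle markers 1 of 3 and cartilage markers 0 of 2, and none of these had an unadjusted p below 0.05. All 5 tested pan-endothelial markers also had less signal in VEGFD, with overlapping groups in each. The high sum was that of Apex replicate 2. Without that array the Gas1 difference was -2.94, and the part of endothelial content in it was not tested.

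Genes with the same profile as Gas1 were found from the root mean square (RMS) difference between centred log2 values over the 4 arrays. The 6 closest were Angptl7, an angiopoietin-like gene, at an RMS difference of 0.17, Cst6, which encodes a protease inhibitor, at 0.18, and Cdh13, which encodes T-cadherin, at 0.20. They were followed by Ogn, which encodes the matrix proteoglycan osteoglycin, at 0.20, Cbln2, a cerebellin gene, at 0.20 and Ifi209, an interferon-inducible gene, at 0.29. Angptl7 had signals of 265, 200, 40.4 and 15.8. Cst6 had 1178, 1079, 256 and 121, and Ogn had 402, 379, 79.7 and 27.3. In each of these the Apex arrays were the higher and VEGFD replicate 2 the lowest, as the choice of genes by likeness fixes. No tested member came closer to Gas1 than Smo, at 1.32, and the farthest was Cdon, at 2.04.

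**Figure D2:**
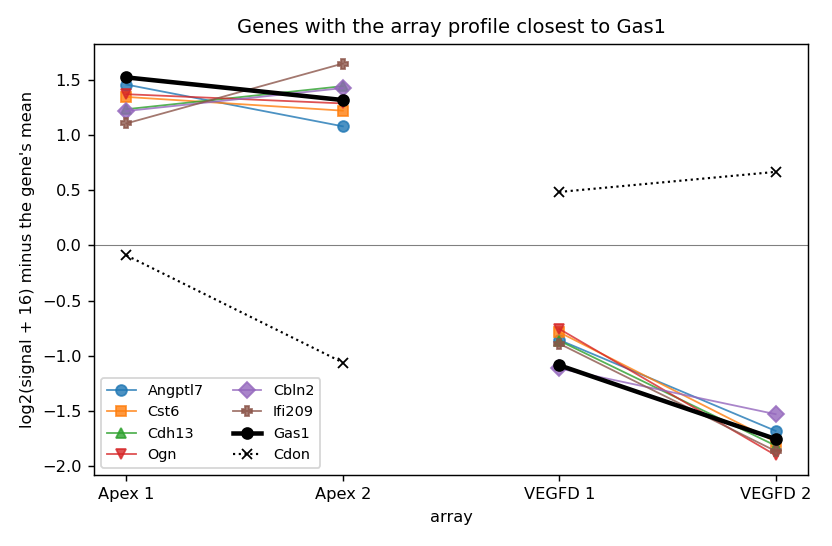
Log2(signal + 16) of each gene minus its own mean, by array, for Gas1, the 6 genes closest to it and Cdon. Gas1 and the genes chosen for likeness are high in both Apex arrays and low in both VEGFD arrays, and Cdon is the member with the largest RMS difference from Gas1, 2.04.

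The co-receptor Cdon lay on the opposite side from Gas1. Cdon encodes a transmembrane protein of the immunoglobulin superfamily that binds hedgehog ligands. Its signals were 42.6, 13.9, 71.3 and 83.1, so both VEGFD arrays were above both Apex arrays. The mean signal was 2.73-fold higher in VEGFD and the log2 difference was 1.15 ± 0.40. It did not pass the limma test (adjusted p = 0.823, unadjusted p = 0.0313). Of all tested genes 1.09% were at least 2-fold higher in VEGFD without overlap. The second Cdon probe set had signals of 1.51 to 2.87, too dim to check the first. Apex replicate 2, the array with the high endothelial sum, held the lowest Cdon signal. Without it the log2 difference was 0.67, and it was 0.63 with a pseudocount of 64.

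Boc, which encodes a protein related to Cdon, differed little. Its signals were 66.3, 52.8, 103 and 67.4, so the groups did not overlap but Apex replicate 1 and VEGFD replicate 2 nearly met. The log2 difference was 0.40 ± 0.30 (limma, adjusted p = 0.829). The second probe set had 54.1, 32.6, 67.2 and 40.2, where the groups overlapped. The third was lower in VEGFD, at 8.77, 12.9, 6.47 and 4.72, below the filter signal. Leaving out VEGFD replicate 1 gave a difference of 0.15, and leaving out VEGFD replicate 2 gave 0.66.

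The receptor Ptch1 did not separate the groups. It encodes Patched, which holds Smoothened inactive and rises when the pathway is active. Its signals were 75.6, 132, 85.3 and 81.4, with Apex replicate 2 the highest and Apex replicate 1 the lowest. The log2 difference was -0.23 ± 0.32 (limma, adjusted p = 0.888), with 0.12 when Apex replicate 2 was left out and -0.57 when Apex replicate 1 was. Its other probe sets were at most 21.3.

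Smo, the gene of the signal transducer Smoothened, was measured well above the filter on all arrays. The signals of its brightest probe set were 415, 427, 399 and 322. Both VEGFD arrays were lower, VEGFD replicate 1 only slightly. The log2 difference was -0.22 ± 0.23 (limma, adjusted p = 0.858). Leaving out VEGFD replicate 2 gave -0.07 and leaving out VEGFD replicate 1 gave -0.37. The second probe set, made from the same source sequence, had 277, 182, 216 and 211 and the groups overlapped.

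Among the transcription factors, Gli1, the target most often read as a sign of pathway activity, was dim. Its single probe set had signals of 16.7, 48.5, 0.714 and 22.8. Only Apex replicate 2 exceeded 25.3, and the groups overlapped. With no detection calls used here, these values set no limit on the level of Gli1 and gave no test.

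Gli2, the main activator of the family, followed the replicate number and not the group. Its signals were 123, 48.4, 140 and 47.5, with replicate 1 high and replicate 2 low in both groups. The second probe set, made from the same source sequence, gave 54.9, 32.4, 75.7 and 22.9. The log2 difference between groups was 0.08 ± 0.58 (limma, adjusted p = 0.980). It lay between -0.57 and 0.73 when 1 array was left out, with negative values without Apex replicate 2 (-0.48) and without VEGFD replicate 1 (-0.57). Whether arrays with the same number share a day or a batch is not stated in the labels.

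Gli3, whose product mostly represses targets when no ligand is present, was highest in VEGFD replicate 2. Its signals were 129, 123, 129 and 228, and VEGFD replicate 1 exceeded Apex replicate 1 by less than 1 signal unit. The second probe set was also highest in VEGFD replicate 2, with 68.6, 54.8, 65.4 and 140, but there the groups overlapped. The log2 difference was 0.41 ± 0.33 (limma, adjusted p = 0.832), and it became 0.04 when VEGFD replicate 2 was left out and 0.78 when VEGFD replicate 1 was. The third probe set had 7.77, 8.71, 14.7 and 21.7, without overlap but below the filter signal.

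Hhip encodes a decoy protein that binds hedgehog ligands and is induced by them. Its brightest probe set had signals of 15.3, 13.9, 21.0 and 13.3, and none of its 4 probe sets exceeded 25.3 on any array. The groups overlapped in the brightest of them. As for Gli1, the deposited values gave no test.

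**Figure D3:**
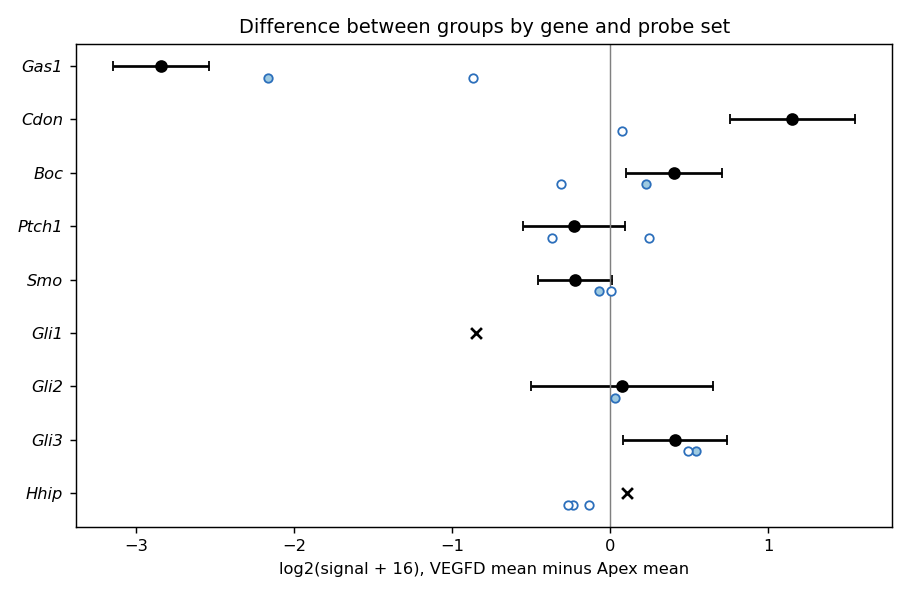
VEGFD minus Apex difference on the log2(signal + 16) scale for each member. Black points with SE bars are tested genes, crosses are genes below the filter, and blue circles are the other probe sets, open where they lay below the filter. Gas1 (-2.84) and Cdon (1.15) lie farthest from 0 on opposite sides, and the other tested members lie between -0.23 and 0.41.

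Of the 6 tested members other than Gas1, 0 passed an adjusted p of 0.05 in limma and 1, Cdon, had an unadjusted p below 0.05. Over all 11677 genes the share called was 0%, with 666 genes (5.70%) at an unadjusted p below 0.05 and a smallest adjusted p of 0.115. Without overlap were 4 of those 6 members, 3 of them higher in VEGFD (Cdon, Boc and Gli3) and Smo lower. The groups did not overlap for 38.5% of all genes in the fit, 16.6% with VEGFD higher and 21.8% with VEGFD lower. With 2 arrays a group there are 3 ways to split them, so the smallest p of an exact permutation test is 0.333. Leaving out VEGFD replicate 1 raised the number of genes called over all to 372 and leaving out VEGFD replicate 2 raised it to 4, and none of the 6 members was among them.

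**Figure D4:**
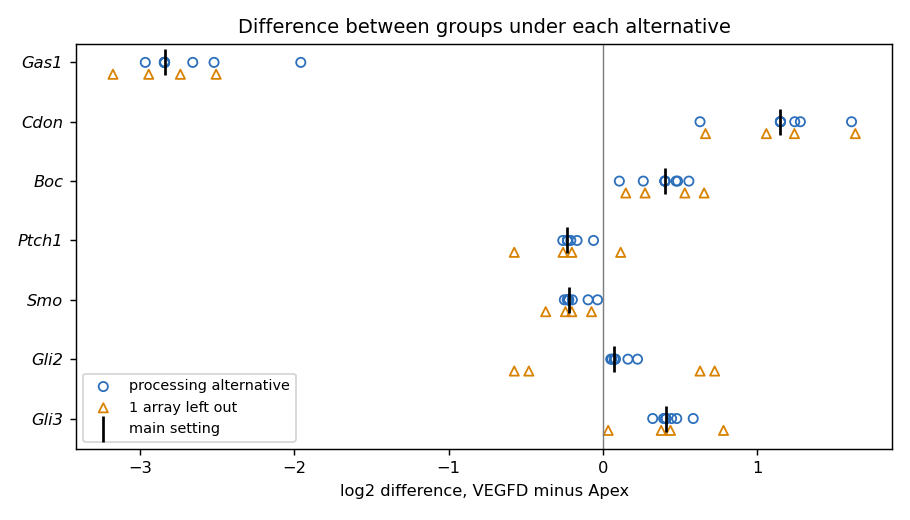
VEGFD minus Apex log2 difference of each tested member under the main setting (black bar), each processing alternative (blue circles) and with 1 array left out (orange triangles). Gas1 stays between -3.18 and -1.96 and Cdon between 0.63 and 1.64, whereas Gli2 and Ptch1 take both signs when an array is left out.

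Other genes of the pathway, and the GDNF family receptors as a list of their own, came from 6 lists that cover 74 genes. Of these genes 68 were named here and 60 were tested. None of the 60 passed in limma (smallest adjusted p = 0.823), and 6 had an unadjusted p below 0.05, beside 5.70% of all tested genes. Of those 6, 2 were GDNF family receptors, which are not genes of the pathway. Of the 60, 21 were higher and 39 lower in VEGFD, with a median of -0.15 beside -0.035 over all tested genes, of which 46.4% were higher. After median centring of the arrays the median of all genes became 0.14, with 7517 genes higher and 4156 lower. The split of the 60 became 33 higher and 27 lower, with a median of 0.025, still below that of all genes. The list counts given below after centring stand beside that shift of all genes. At least 2-fold apart without overlap were 5 of the 60, against 3.88% of all tested genes. Of those 5, 2 were GDNF family receptors. Without VEGFD replicate 1, 4 genes passed: Gpc6, Igf2, Mycn and Sfrp1. Igf2 was named after its values were seen. Its signals were 84.6, 80.0, 99.6 and 9.35, with overlapping groups, so the array left out was its highest. Adjusted p-values below are limma's on all 4 arrays.

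Among ligand and release genes 3 of 5 tested were higher and 2 lower, with a median of 0.075, and 4 higher and 1 lower after median centring. Without VEGFD replicate 2 the median was -0.22. Shh (Sonic hedgehog) had signals of 32.4, 36.4, 41.6 and 38.6, a log2 difference of 0.16 ± 0.27 (adjusted p = 0.910), and 0.098 without Apex replicate 1. Ihh (Indian hedgehog) had 26.5, 34.1, 23.7 and 43.6, with overlap, and a difference of 0.075 that turned negative without Apex replicate 1 (-0.044) or VEGFD replicate 2 (-0.22). All of these lie close to the filter signal. Dhh (Desert hedgehog) had 38.8, 61.1, 18.9 and 22.4, lower in both VEGFD arrays, and a difference of -0.83 ± 0.31 (adjusted p = 0.823). Both VEGFD signals were under 25.3, and the difference was -0.42 with a pseudocount of 64. Beside it, the summed signal of the 4 Schwann cell markers named here was 374 and 229 in Apex and 279 and 141 in VEGFD. Of those 4, 3 were lower and 1 higher (2 and 2 after median centring). The higher was Mbp, the gene of myelin basic protein, with overlapping groups. Its 4 other probe sets above the filter were lower, from -1.63 to -0.39. The part of these markers in the Dhh difference was not tested.

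Among other surface binders and reception genes 5 of 7 tested were higher and 2 lower, with a median of 0.12, and 4 higher and 3 lower with quantile normalization. Leaving out VEGFD replicate 1 gave a median of 0.025, and leaving out VEGFD replicate 2 one of 0.23. Gpc6, which encodes a heparan sulphate glypican, had 496, 365, 298 and 118, lower in both VEGFD arrays, and a difference of -1.11 ± 0.45 (adjusted p = 0.823). It was -0.49 without VEGFD replicate 2 and -1.72 once VEGFD replicate 1 was left out, which brought it past the threshold (adjusted p = 0.0319). Its 3 other probe sets above the filter were also lower, from -1.39 to -0.45. Lrp2, which encodes the endocytic receptor megalin, had 22.9, 18.3, 75.8 and 41.8 and a difference of 0.996 ± 0.34 (adjusted p = 0.823), with its other probe set above the filter at -0.36. Both Apex signals of Lrp2 were under 25.3, and its difference was 0.52 with a pseudocount of 64. Without VEGFD replicate 1 it was 0.66. Gpr161, a ciliary receptor gene that restrains the pathway, had 232, 146, 291 and 284 and a difference of 0.60 ± 0.29, which became -0.085 with averaged probe sets. Leaving out Apex replicate 2 gave 0.29, and leaving out Apex replicate 1 gave 0.90.

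Transduction and Gli control genes had 7 of 15 higher and 8 lower, with a median of -0.0039, and 9 higher and 6 lower after median centring. The median was -0.22 without VEGFD replicate 1. Sufu, which encodes the protein that holds Gli factors in check, had 149, 176, 115 and 144, a difference of -0.30 ± 0.26 (adjusted p = 0.833). Its groups were separated by a narrow margin, and the difference was -0.15 without VEGFD replicate 1 and -0.19 without Apex replicate 2. Genes of transport in the primary cilium had 2 of 13 higher and 11 lower, with a median of -0.15. Median centring of the arrays made this 8 higher and 5 lower, with a median of 0.032 beside 0.14 over all tested genes. Leaving out 1 array gave medians from -0.27 (VEGFD replicate 1) to -0.099 (Apex replicate 2). Bbs4, a ciliary trafficking gene, had 82.1, 89.4, 67.0 and 32.8 and a difference of -0.68 ± 0.34 (adjusted p = 0.823). Its 3 other probe sets above the filter were on the opposite side, from 0.050 to 0.37. With averaged probe sets the difference was -0.019, and it became -0.29 when VEGFD replicate 2 was left out and -1.06 when VEGFD replicate 1 was.

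Genes reported as targets of the pathway had 3 of 15 higher and 12 lower, with a median of -0.48. After that centring 6 were higher and 9 lower and the median was -0.28. Without Apex replicate 2, the array with the high endothelial sum, the median was -0.081. Sfrp1, which encodes a secreted Wnt antagonist, had 748, 840, 399 and 147, lower in both VEGFD arrays, and a difference of -1.64 ± 0.47 (adjusted p = 0.823). Its 4 other probe sets above the filter were lower too, from -1.66 to -1.16. It was -0.96 without VEGFD replicate 2 and -2.31, past the threshold, when VEGFD replicate 1 was left out (adjusted p = 0.0109). Snai2, a gene of a mesenchymal transcription factor, had 1611, 2804, 1045 and 1160 and a difference of -0.94 ± 0.32 (adjusted p = 0.823), and -0.54 without Apex replicate 2. Its other probe set above the filter was at -0.30, and averaged probe sets gave -0.62. Mycn, a growth-promoting transcription factor gene, had 41.9, 12.0, 46.4 and 270, so that only VEGFD replicate 2 stood clear. Its difference was 1.73 ± 0.79 (adjusted p = 0.823), 0.63 without VEGFD replicate 2 and 2.83 when VEGFD replicate 1 was left out. The other Mycn probe set above the filter was at 0.31, and averaged probe sets gave 0.99.

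The GDNF family receptors, of which the co-receptors but not Ret are related to the Gas1 protein, had 1 of 5 higher and 4 lower, with a median of -0.59. The median was -0.29 with a pseudocount of 64, and -0.77 to -0.42 with 1 array left out. With the filter at the 75th percentile 1 gene of the list was tested, Ret, at 0.76. Gfra3, the co-receptor gene for artemin, had 87.8, 78.2, 22.5 and 39.7, lower in both VEGFD arrays, and a difference of -1.09 ± 0.31 (adjusted p = 0.823). Gfra2, the co-receptor gene for neurturin, had 75.3, 372, 11.9 and 41.2 and a difference of -2.24 ± 0.75 (adjusted p = 0.823). That was -1.19 without Apex replicate 2, and -0.32 where the probe set with the highest mean log2 value stood for the gene. Gfra1, the co-receptor gene for GDNF, had 44.9, 31.6, 18.7 and 20.7 and a difference of -0.59 ± 0.29 (adjusted p = 0.823). Both VEGFD signals of Gfra1 were under 25.3, and its difference was -0.29 with a pseudocount of 64. Ret, the signalling partner of these co-receptors, was the gene of this list that was higher, with overlapping groups. The other Ret probe set above the filter was at -0.14.

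**Figure D5:**
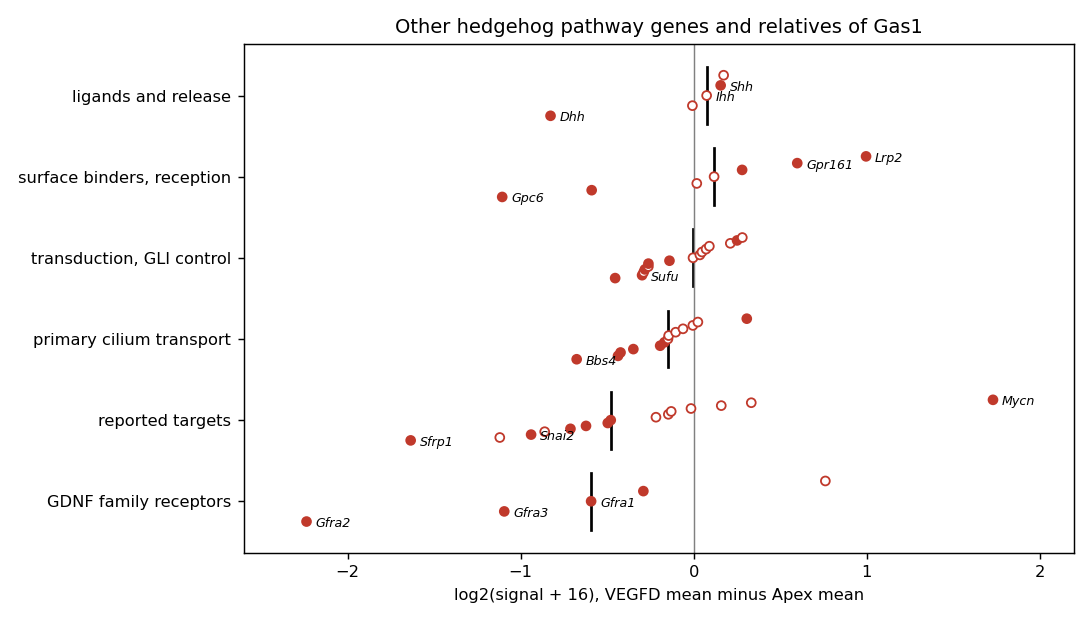
VEGFD minus Apex log2 difference of each tested gene of the 6 lists, with filled points where the groups did not overlap and a black bar at the list median. Medians run from -0.59 for the GDNF family receptors to 0.12 for the surface binders, and no gene of these lists passed the test.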

How the data were processed

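Per the labels' protocols, total RNA was labelled with biotin in 1 amplification cycle for Affymetrix arrays. The deposited values are linear intensity, 1 signal per probe set, and the sources used here do not name the algorithm that made them. Trimming 2% of probe sets at each end gave every array a mean of 150. The array medians were 23.9 to 30.5. The number of arrays, 2 in each group, limits the precision.

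Of 45101 probe sets, 64 were controls, 34945 had 1 gene symbol, 932 had several and 9160 were unnamed here. The brightest probe set by mean signal stood for each gene. Values were log2(signal + 16). Genes at or above 5.37 on that scale entered limma 3.58.1 (R 4.3.3, intensity trend, two-sided, Benjamini-Hochberg adjustment over 11677 genes, threshold 0.05), after tests on simulated data.

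The members, gene lists and tests were chosen with earlier results of these data known. All members were named, and from each list up to 3 genes at least 0.58 apart (log2) without overlap, plus Shh, Ihh, Dhh and Sufu. Some items of the rule are not reported here. Genes named outside this rule, among them those set beside Gas1 from the marker lists, were chosen after their values were seen. Alternatives covered the pseudocount, filter, scaling, probe set choice, variance trend, a replicate block and leaving out each array. Promoters and motifs came from RefSeq sequences of GRCm38.p6.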

Additional observations from a re-analysis of the deposited data

How the results depend on the processing

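Over the 20 named genes other than Gas1 and the 6 chosen for likeness to it, 262 values under alternatives kept the sign of the main value except 6, and 3 passed the threshold that the main value missed (Gpc6, Mycn and Sfrp1, without VEGFD replicate 1). For Gas1 and those 6 genes all 95 values kept their sign, and nothing is read from passes among them, since they were chosen by this profile. The sign turned for Ptch1 without Apex replicate 2 (0.12), Gli2 without Apex replicate 2 (-0.48) and without VEGFD replicate 1 (-0.57), Ihh without Apex replicate 1 (-0.044) and without VEGFD replicate 2 (-0.22), and Gpr161 with averaged probe sets (-0.085). With 1 array left out Gli2 lay between -0.57 and 0.73, Ihh between -0.22 and 0.37 and Ptch1 between -0.57 and 0.12. The cause was not tested. The number of all genes past an adjusted p of 0.05 in limma was 0, and 0 to 372 with 1 array left out. The number 2-fold apart without overlap was 453 (127 higher, 326 lower), 231 with a pseudocount of 64, 226 with the filter at the 75th percentile, where fewer genes were tested, and 442 to 1348 with 1 array left out. Median centring of the arrays gave 443 (219 higher, 224 lower).

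With the replicate block, 6 genes passed, and the members that did numbered 1, Gas1, from which nothing is read because it was chosen for this difference. The labels do not say that the numbers pair arrays, and the deviations of same-numbered arrays from their group means correlated at 0.197. Members that passed numbered 0 to 1 with 1 array left out, the 1 again being Gas1. Where an array is left out, the remaining single array is taken to have the spread of the other group. The 2 members 2-fold apart became 1 with a pseudocount of 64, with the 75th percentile filter, with averaged probe sets (Cdon was not tested in the last 2 of these), and 1 to 2 with 1 array left out. In the other pathway lists, 0 to 4 genes passed with 1 array left out. The 5 that were 2-fold apart became 3 with a pseudocount of 64, 2 with the 75th percentile filter, 2 with averaged probe sets and 5 to 10 with 1 array left out. No detection calls were used, so signals near 25.3 set no limit on a gene's level.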
